A study of Mus musculus with 20 samples.

Results

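The actin cytoskeleton and serum response factor (SRF) target genes described here are 10 genes picked by name, Actb, Actg1, Tmsb4x, Tmsb10, Cfl1, Pfn1, Vcl, Srf, Ctgf and Cyr61. All 10 had a row among the 22556 protein-coding genes of the deposited table. The cells were wild-type E14 mouse embryonic stem cells in serum medium with leukemia inhibitory factor on gelatin. They received DRB at 100 µM for 2 h or 5 h, triptolide at 10 µM for 1 h or 2 h, or no drug, and each condition had 2 samples given 4-thiouridine at 150 µM for 10 min and 2 background samples without it. DRB blocks the kinases that let RNA polymerase II leave the promoter-proximal pause, triptolide blocks initiation through a TFIIH subunit, and captured thiouridine-tagged RNA is RNA made in the labelling window.

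Actin monomers assemble into filaments, and the balance is read by transcription. Free monomeric actin holds the coactivators MRTF-A and MRTF-B, and when filaments grow these are released and join SRF at a DNA element called the CArG box. Actin genes, Vcl and Srf itself are well-known SRF targets, while Ctgf and Cyr61 are widely used readouts of the coactivators YAP and TAZ, which act through TEAD factors and also follow the state of the cytoskeleton.

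Promoter windows from the RefSeq tables (GRCm38.p6), from 250 bases before the annotated start to 50 after it, were found for 8 of the 10 genes, and Actb and Ctgf had none. The 4 stretches below are shown because they hold the elements of the SRF and TEAD programmes. They read 5′ to 3′ on the gene's own strand, and capitals mark CArG boxes in Srf and Actg1, a CArG box and then the TEAD motif GGAATG in Vcl, and the TEAD motif on the opposite strand (as CATTCC) and then the TATA motif TATAAA in Cyr61.
Srf (chr17:46556163-46556282, minus strand, 120 to 1 bases before the start): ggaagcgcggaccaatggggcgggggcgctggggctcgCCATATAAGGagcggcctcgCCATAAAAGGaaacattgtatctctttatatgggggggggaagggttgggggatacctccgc
Actg1 (chr11:120348496-120348615, minus strand, 120 to 1 bases before the start): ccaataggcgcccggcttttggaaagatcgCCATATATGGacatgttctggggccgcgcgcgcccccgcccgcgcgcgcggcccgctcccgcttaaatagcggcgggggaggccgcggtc
Vcl (chr14:20929148-20929267, plus strand, 250 to 131 bases before the start): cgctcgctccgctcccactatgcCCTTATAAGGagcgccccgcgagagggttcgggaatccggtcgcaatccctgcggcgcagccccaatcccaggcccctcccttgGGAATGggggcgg
Cyr61 (chr3:145649986-145650105, minus strand, 120 to 1 bases before the start): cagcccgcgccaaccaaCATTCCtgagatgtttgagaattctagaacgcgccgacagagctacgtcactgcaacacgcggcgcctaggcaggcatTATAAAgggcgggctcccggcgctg

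A CArG box on either strand stood in the windows of 3 genes, Actg1, Vcl and Srf, against 1.63% of all 32851 windows and 1.30% of the 7720 windows of genes above 1 read per kb without drug. Srf, the transcription factor gene, had 2 boxes, whose first bases lay 82 and 62 bases before the start. The box of Actg1, the gamma-actin gene, began 90 bases before the start, and that of Vcl, the gene of the adhesion protein vinculin, 227 bases before it. The TEAD motif was found in Pfn1, Vcl and Cyr61, against 14.7% of all windows and 11.8% of those of genes above 1 read per kb, at 52, 143 and 103 bases before the start. TATAAA, on either strand, was found in Srf and Cyr61, against 13.6% of all windows and 6.50% of those of genes above 1 read per kb. The SP1 motif GGGCGG was found in all 8 genes, against 35.7% of all windows and 64.8% of those of genes above 1 read per kb, and some SP1 matches in Actg1, Vcl and Cfl1 overlap each other. These are matches of letters in a short window, and an element elsewhere in the gene would be missed.

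**Figure D1:**
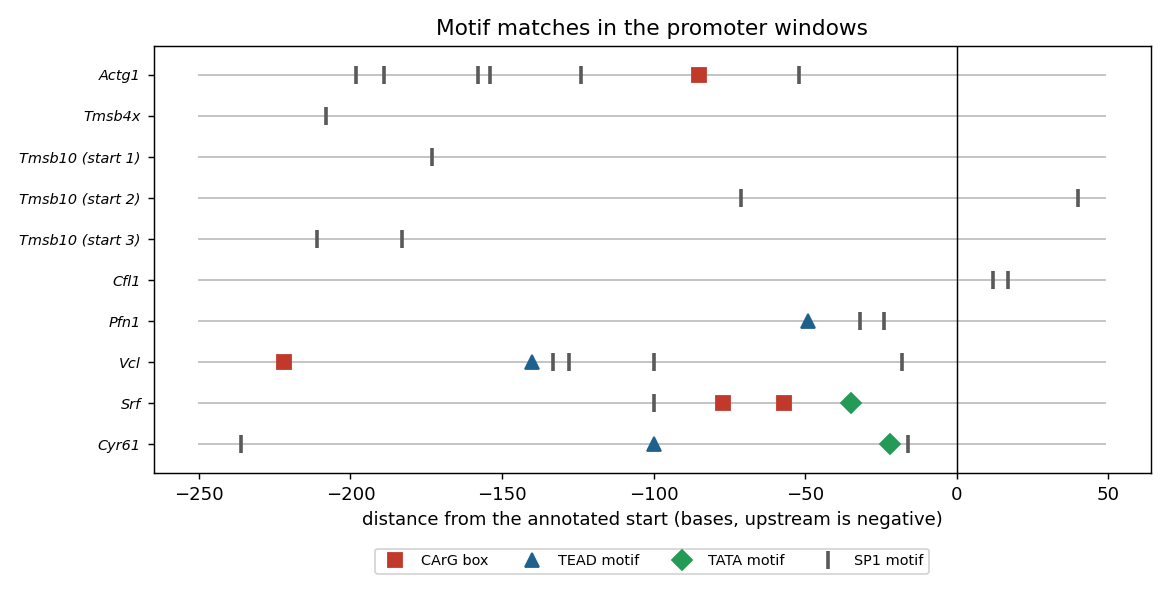
Motif matches in the promoter windows of 8 genes, with 3 annotated starts for Tmsb10. The x axis is the distance in bases from the annotated start, symbols mark the middle of each match on either strand, and squares (CArG boxes) are seen in Actg1, Vcl and Srf.

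Values are reads per kilobase of gene in which, per the file headers, negative values were set to 0. Negative values can arise only if a background was taken off, so the reads are called net reads here, although the subtraction itself is not described in the sources used. The table has 1 column per condition, so no value carries a replicate error and no comparison carries a test. Brackets hold exact 95% intervals from Poisson counting of the whole net reads recovered from the values, which leave out replicate spread and the subtraction and are therefore too narrow. A gene whose value is 0 is described as listed at 0 and gets no ratio. Recovered net reads over all genes summed to 332909 with DRB for 2 h, 95064 with DRB for 5 h, 73616 with triptolide for 1 h, 61972 with triptolide for 2 h and 1245285 without drug. Whether the columns had been equalised for sequencing depth is not given in the sources used here, so fewer reads and less transcription cannot be told apart, and nor can fewer cells and less RNA per cell. All 8 embryonic stem cell markers were present without drug, between 8.64 and 69.6 reads per kb, while 3 of 8 fibroblast markers were at 0 and Fn1 was the highest at 7.04. Of 5 smooth muscle markers Tagln, at 2.18, was the highest, and 5 primitive endoderm markers reached at most 0.850.

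Without drug 8 of the 10 genes were among the 405 highest genes of the table. Actb, the gene of beta-actin (chromosome 5, 142903115 to 142906754, GRCm38, GENCODE M21), stood at 128 reads per kb (117 to 141), at place 22 from the top of the 22556 genes. Pfn1, encoding the monomer-binding protein profilin (chromosome 11, 70651850 to 70654644), had 82.3 (72.02 to 93.7). Cfl1, encoding the filament-severing protein cofilin (chromosome 19, 5490455 to 5495201), had 72.2 (63.7 to 81.6). The interval of Actb lay above both of theirs, while the intervals of Pfn1 and Cfl1 overlapped.

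Actg1 (chromosome 11, 120345690 to 120348542), Ctgf, encoding a secreted matricellular protein (chromosome 10, 24595442 to 24598683), and Tmsb4x, encoding the monomer-sequestering peptide thymosin beta 4 (chromosome X, 167207093 to 167209315), had 46.6 (39.0 to 55.3), 45.0 (38.0 to 53.0) and 42.8 (34.6 to 52.3) reads per kb, with overlapping intervals. Tmsb10, a related thymosin gene (chromosome 6, 72957347 to 72958748), had 30.0 (21.6 to 40.5) and Cyr61, a matricellular gene related to Ctgf (chromosome 3, 145646976 to 145649981), had 25.5 (20.2 to 31.9). Srf (chromosome 17, 46548329 to 46556175) was lower at 8.04 (6.33 to 10.1), and Vcl (chromosome 14, 20929398 to 21033676) was the lowest at 1.19 (0.989 to 1.42), spread over a gene body of 104279 bases. In net reads, which do not divide by length, Vcl had 124, between the 133 of Actg1 and the 95 of Tmsb4x. The 10 genes held 1645 net reads, or 0.132% (exact binomial interval 0.126 to 0.139) of the column.

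**Figure D2:**
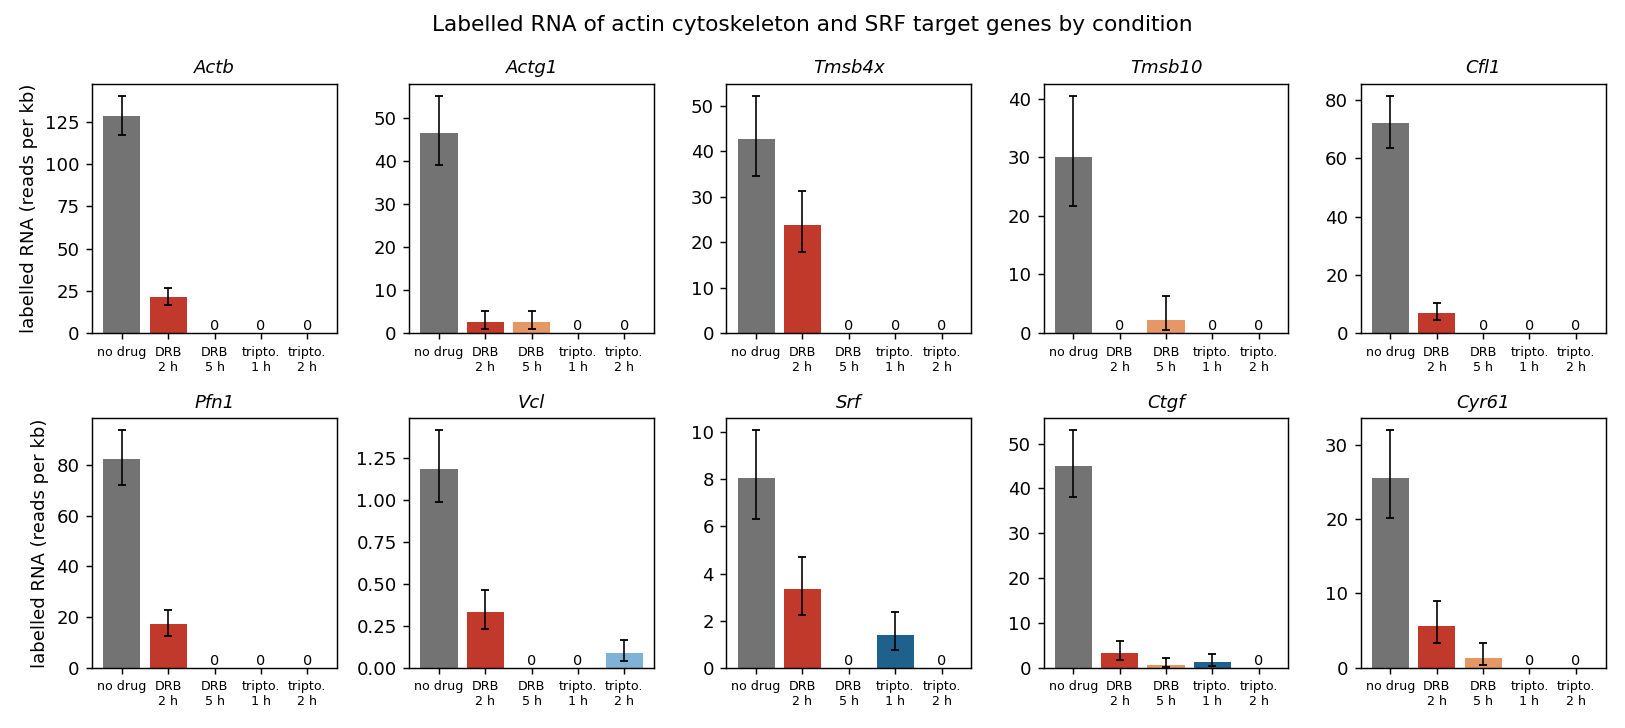
Labelled RNA of each gene in reads per kb (y axis, starting at 0, scaled per gene) in the 5 conditions, with 1 deposited value per bar. Error bars are exact 95% Poisson intervals of the net reads and 0 marks a gene listed at 0. Every gene is highest without drug, Tmsb4x keeps 23.9 at 2 h of DRB, and most bars at 5 h of DRB and with triptolide are at 0.

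After 2 h of DRB the members had lower values than without drug throughout, but to very different degrees. Tmsb10 was listed at 0, Actg1 was at 5.26% of no drug and Actb at 16.5%, while Srf was at 41.3% and Tmsb4x at 55.8%. Tmsb10 was the 1 member of 10 at 0, against 9.47% of 8560 genes. In sum the 10 genes had 304 net reads, against 1645 without drug, or 18.5% (16.3 to 20.9), beside 26.7% over all genes. The median member was at 18.7% of no drug, close to the median of 20.0% over 8560 genes with signal without drug. On the scale log2(value + 1), 8 of 10 members were past a difference of 1 unit on the low side and 0 on the high side, against 66.1% and 2.20% of the 8773 genes that exceeded 1 read per kb somewhere among the 5 conditions. The remaining members, Tmsb4x and Vcl, lay within 1 unit, Vcl because its values are small beside the added 1. With columns scaled to equal medians or equal quantiles, 5 members were lower and 0 higher, against 2628 genes lower and 777 higher with equal medians and 684 and 637 with equal quantiles.

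The 2 cytoplasmic actin genes differed. Actb had 21.2 reads per kb (77 net reads) after 2 h of DRB, against 128 (467) without drug, or 16.5% (12.8 to 21.02). Actg1 had 2.45 reads per kb (7 net reads), against 46.6 (133), or 5.26% (2.08 to 11.1). The intervals do not overlap, but they leave out the subtraction and replicate spread, so the difference was not tested. Of genes within 2-fold of its own level without drug, 5.54% of 379 kept less than Actg1, and 26.2% of 122 kept less than Actb. The coding parts of the pair, 1128 bases each, are identical at 1000 positions (88.7%). Of all 36-base words of the spliced transcripts, 57.0% of those of Actg1 and 28.9% of those of Actb also occur in a transcript of another gene. Of the genes sharing words with Actg1 16 of 26 were pseudogenes, and of those sharing with Actb 17 of 21. How reads with several matches were treated is not given in the sources used here, so the levels of both genes are uncertain, and the part of shared reads in their difference was not tested.

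The thymosin genes stood at opposite ends. Tmsb4x had 23.9 reads per kb (53 net reads) after 2 h of DRB, against 42.8 (95) without drug, or 55.8% (39.1 to 78.9), and 83.8% of 420 genes of like level kept less. Tmsb10 was listed at 0, against 30.0 reads per kb (42 net reads). Of 722 genes of like level 1.52% were listed at 0 in that column, and of 95 genes of like level and length 5.26%. None of the 36-base words of Tmsb4x occurred in another gene's transcript, against 31.7% for Tmsb10. Scaling the columns to equal medians or quantiles turned Tmsb4x higher than without drug, by 0.68 and 0.60 on the log2(value + 1) scale, so its direction rests on the deposited scale.

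Of the filament-turnover genes Cfl1 kept less than Pfn1. Cfl1 had 7.05 reads per kb (25 net reads) after 2 h of DRB, against 72.2 (256) without drug, or 9.77% (6.20 to 14.7), and 11.1% of 225 genes of like level kept less. Pfn1 had 17.2 reads per kb (48 net reads), against 82.3 (230), or 20.9% (15.0 to 28.6), and 37.2% of 196 genes of like level kept less. These intervals do not overlap, by a narrow margin, but they leave out the subtraction and replicate spread, so the difference was not tested. Cfl1 overlaps the antisense gene Snx32, and 26.6% of its 36-base words recur elsewhere, against 0.363% for Pfn1.

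Among the nuclear and adhesion members, Srf had 3.33 reads per kb (31 net reads) after 2 h of DRB, against 8.04 (75) without drug, or 41.3% (26.3 to 63.6). Of 3081 genes of like level 82.3% kept less. Vcl had 0.336 reads per kb (35 net reads), against 1.19 (124), or 28.2% (18.8 to 41.4). Of 4106 genes of like level to Vcl 65.1% kept less. Srf was higher than without drug with equal medians or quantiles, by 0.24 and 0.38, and Vcl with equal quantiles, by 0.12. Both have an antisense neighbour, Gm26904 for Srf and Ap3m1 for Vcl, and the use of strand in counting is not given in the sources used here. Of the 36-base words of Vcl 39.4% occur in transcripts of Ap3m1 on either strand, while 0% of those of Srf recur elsewhere. The length that the Srf values fit was 9323 bases, against a span of 7847 in GENCODE M21, so its net reads are less sure than those of genes whose lengths match.

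The matricellular pair, readouts of YAP and TEAD in many cell types, had these values. Ctgf had 3.39 reads per kb (11 net reads) after 2 h of DRB, against 45.0 (146) without drug, or 7.53% (3.68 to 13.9). Cyr61 had 5.64 reads per kb (17 net reads), against 25.5 (77), or 22.1% (12.2 to 37.7). Their intervals overlap, and the difference between the pair was not tested. Ctgf overlaps the antisense gene Gm15270, in whose transcripts 20.1% of its 36-base words occur on either strand. Cyr61 has no overlapping gene and 0% of its words recur elsewhere. Cyr61 sat in the middle of its level, with 50.6% of 913 like genes keeping less, and Ctgf near the bottom, with 11.7% of 394. When like genes also had to be within 2-fold in length, a setting chosen after seeing the data, these shares were 52.0% and 14.5%, and those of Srf, Vcl and Tmsb4x were 80.3%, 77.7% and 84.1%.

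**Figure D3:**
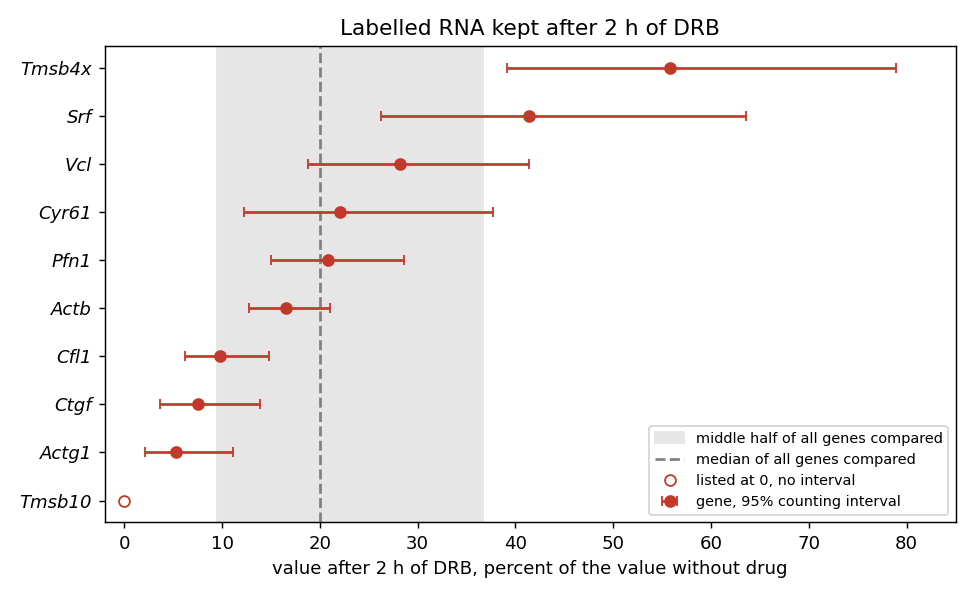
Value after 2 h of DRB as a percent of the value without drug (x axis) for the 10 genes, with exact 95% Poisson intervals. The band spans the middle of all genes compared, 9.52% to 36.7%, and the dashed line is their median of 20.0%. Tmsb4x and Srf lie above the band, and Tmsb10 (open, listed at 0), Actg1 and Ctgf below it.

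The 3 genes with a CArG box in the window, Actg1, Vcl and Srf, were at 5.26%, 28.2% and 41.3% of no drug and so span most of the range of the 10. Over all genes above 1 read per kb without drug, the 97 with a CArG box had a median of 21.4% after 2 h of DRB, with quartiles at 11.03% and 41.3%, and the 6091 with a window but no box had 19.6%, with quartiles at 9.43% and 34.2%. Lower by at least 1 log2 unit were 68.0% of the set with a box and 69.8% of the set without.

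After 5 h of DRB, 6 of the 10 genes were listed at 0, namely Actb, Tmsb4x, Cfl1, Pfn1, Vcl and Srf, against 47.3% of 8560 genes with signal without drug. The 10 genes had 16 net reads in all, against 1645 without drug, or 0.973% (0.555 to 1.58), beside 7.63% over all genes. They held 0.0168% (0.00962 to 0.0273) of the column. Taken gene by gene, the median percent of no drug was 0 over the members and 1.24 over the 8560 genes. All 10 were lower by at least 1 log2 unit, against 85.5% of 8773 genes. With equal quantiles 6 were, against 2232 of the 8773 genes.

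The few reads left at 5 h lay in Actg1 and in Tmsb10, Ctgf and Cyr61. Actg1 had 7 net reads, against 133 without drug, or 5.26% (2.08 to 11.1), as many as at 2 h. Cyr61 had 4, against 77, or 5.19% (1.38 to 13.8), and Ctgf 2, against 146, or 1.37% (0.164 to 5.04). Tmsb10 had 3, against 42, or 7.14% (1.42 to 22.4), although it was listed at 0 at 2 h. Genes without signal in untreated cells also reached such numbers. Of 7318 genes listed at 0 without drug, not matched on length, 0.765% had 7 or more net reads in the 5 h column, 2.06% had 4 or more and 3.31% had 3 or more.

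Set against 2 h, the 5 h column had 16 net reads over the members, against 304, or 5.26% (2.97 to 8.69), beside 28.6% over all genes. Taken gene by gene, the median percent of the 2 h value was 0 over the members with signal at 2 h and 8.57 over 7889 genes. By at least 1 log2 unit 7 members were lower, against 29.7% of 8773 genes, and 1, Tmsb10, was higher, against 1.13%. A gene below 1 read per kb at 2 h cannot fall by 1 unit once 1 is added, which holds down the share of all genes. With 0.1 added in place of 1, 8 members were lower and 1 higher, against 5678 and 399 of the 8773 genes. At 0 were 6 members, against 46.0% of 7889 genes with signal at 2 h. Actb had 0 net reads, against 77 at 2 h, and Tmsb4x 0 against 53, although it had kept most at 2 h. Vcl, also with 0 against 35, lay within 1 log2 unit because of its low value per kb.

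**Figure D4:**
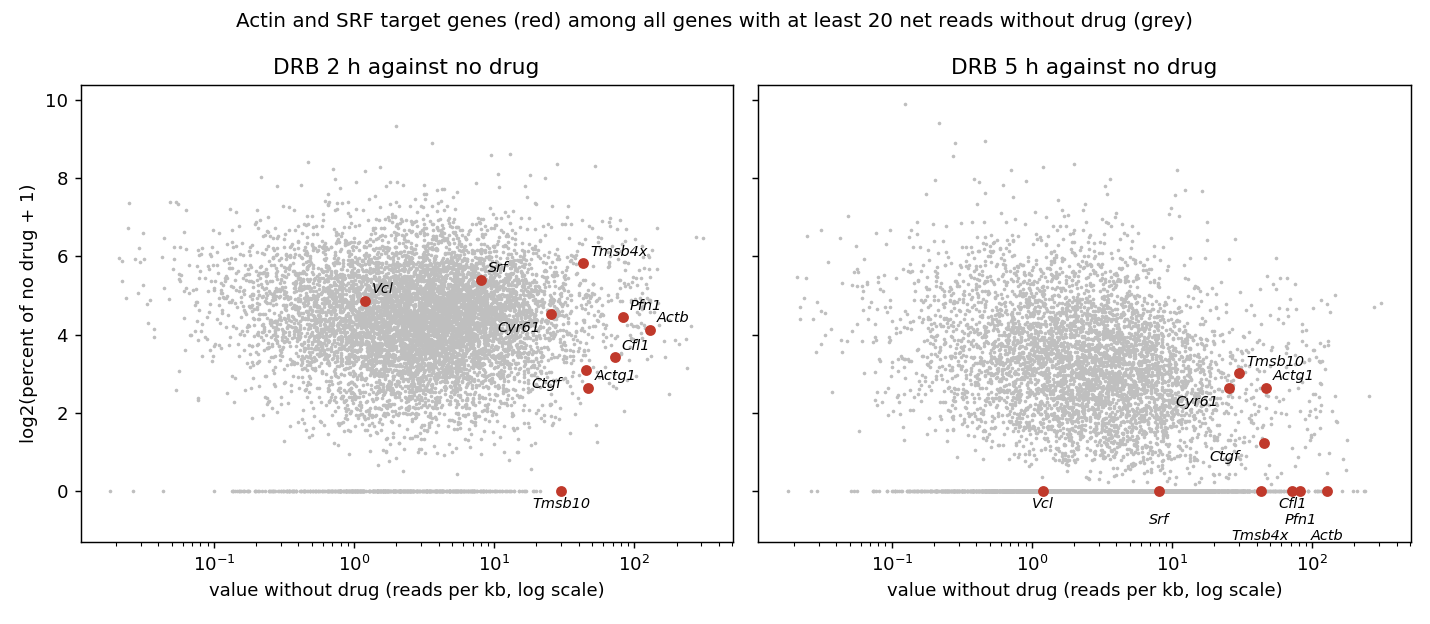
Value with drug as log2(percent of no drug + 1) (y axis) against the value without drug in reads per kb (x axis, log scale) for 2 h and 5 h of DRB. Red points are the 10 genes and grey points all genes with at least 20 net reads without drug; points at 0 on the y axis are listed at 0. At 2 h the genes are spread from 0 to 55.8% of no drug, and at 5 h 6 of them are at 0.

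Triptolide left almost nothing of these genes within 1 h. At 1 h, 8 of 10 were listed at 0, against 59.3% of 8560 genes, and Actb, with 467 net reads without drug, was among them. Of genes of like level to each of these 8, between 51.9% (Vcl) and 76.0% (Actg1) were at 0 as well. The members had 17 net reads, against 1645 without drug, or 1.03% (0.601 to 1.66), beside 5.91% over all genes. Taken gene by gene, the median percent of no drug was 0 both over the members and over the 8560 genes. All 10 were lower by at least 1 log2 unit, against 87.9% of 8773 genes.

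The reads at 1 h lay in Srf and Ctgf. Srf had 1.39 reads per kb (13 net reads) after 1 h of triptolide, against 8.04 (75) without drug, or 17.3% (8.82 to 31.5), and 95.03% of 3081 genes of like level kept less. Of 7318 genes listed at 0 without drug 0.342% had 13 or more net reads in that column. With equal medians and quantiles Srf was higher than without drug, by 0.14 and 1.70. Ctgf had 1.23 reads per kb (4 net reads), against 45.0 (146), or 2.74% (0.737 to 7.17).

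At 2 h of triptolide 9 of 10 were listed at 0, against 49.5% of 8560 genes, and Srf and Ctgf were now among them. Of genes of like level to each of these 9, between 50.9% (Srf) and 71.3% (Actb) were at 0 as well. Vcl alone of the members had signal, 0.0863 reads per kb (9 net reads), against 1.19 (124) without drug, or 7.26% (3.24 to 14.2). It had been listed at 0 at 1 h. Of 4106 genes of like level 63.3% kept less, and 68.1% of those of like level and length. Of genes listed at 0 without drug 0.465% had 9 or more net reads. All 10 members were lower by at least 1 log2 unit, against 87.0% of 8773 genes; with equal quantiles 9 were, against 2373 of the genes, and Vcl was higher by 0.34. At 2 h of triptolide against 1 h 2 members, Srf and Ctgf, were lower by that size, against 3.03% of genes, and 0 were higher, against 3.35%. Both were at 0 at 2 h, against 37.3% of 3548 genes with signal at 1 h, and 7 members were at 0 in both columns.

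At the shared time of 2 h, DRB left more of these genes than triptolide. The members had 304 net reads with DRB, against 9 with triptolide. By at least 1 log2 unit 8 of 10 were higher with DRB, against 33.2% of 8773 genes, and 0 lower, against 1.04%. A gene below 1 read per kb with DRB cannot be higher by 1 unit once 1 is added, which holds down the share of all genes. With 0.1 added in place of 1, 9 members were higher and 0 lower, against 6028 and 399 of the 8773 genes. Of 4414 genes with signal after triptolide 7.52% were at 0 with DRB, and Vcl, the 1 member with such signal, was not. Actb had 77 net reads with DRB and 0 with triptolide, Tmsb4x 53 and 0, and Pfn1 48 and 0. Vcl had 35 net reads with DRB, against 9 with triptolide, a ratio of 3.89 (1.83 to 9.20), and was slightly lower with equal quantiles, by -0.22. Tmsb10 was at 0 in both. Each of these drug columns was set against the same column without drug, so the comparisons with no drug are not independent.

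The profile of percents over the 4 drug columns was set against that of 5721 genes with at least 50 net reads without drug. Nearest to Actb, by Euclidean distance of log2(percent + 1), were Xpo6, D15Ertd621e and Vwa9, at 16.5% after 2 h of DRB and listed at 0 in the other 3 columns, as Actb was. Nearest to Vcl were Mprip, Psmd1 and Riok2, and nearest to Srf Mnf1, Prmt5 and Kank2. With 4 values, of which 2 or 3 are 0, likeness means little beyond the value at 2 h of DRB.

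The wider pathway was read from 9 lists of 97 names in all, of which 94 were in the table and 65 passed the filter of 1 read per kb in at least 1 condition. After 2 h of DRB 47 of the 65 (72.3%) were lower and 1 was higher by 1 log2 unit or more, against 66.1% and 2.20% of 8773 genes. With equal medians 16 were lower and 4 higher, against 2628 and 777 of 8773 genes, and with equal quantiles 3 and 2, against 684 and 637. Lower with equal medians were 6 of 14 turnover genes, 6 of 14 cytoskeletal SRF targets and 2 of 9 YAP and TEAD genes. The rest were 1 of 4 SRF cofactors and 1 of 3 muscle-type genes. No nucleation, focal adhesion or growth factor induced gene was lower (0 of 10, 0 of 6 and 0 of 5). With equal quantiles the 3 lower ones were 2 cytoskeletal SRF targets and 1 SRF cofactor. As deposited, actin nucleation genes were lower in 9 of 10, against 66.1% of all genes, among them Arpc4 and Arpc1b, subunits of the Arp2/3 complex that branches filaments, at 43.2% (34.6 to 53.7) and 38.6% (28.8 to 51.4) of no drug. Wasf2, which activates that complex, was at 31.9% (26.3 to 38.6).

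Filament-turnover genes were lower in 12 of 14, against 66.1% of all genes, with Wdr1, a cofilin partner, at 18.7% (15.7 to 22.1), Capzb, a filament-capping subunit, at 34.0% (31.1 to 37.2), and Coro1c, a coronin, at 13.9% (11.05 to 17.4). SRF targets of the cytoskeleton were lower in 10 of 14 and focal adhesion genes in 5 of 6, against the same 66.1%. In that list Tpm3, a tropomyosin, was at 8.30% (5.96 to 11.3) and Cnn3, a calponin, at 10.4% (7.77 to 13.7), while Actn4, an actin crosslinker, was at 59.1% (53.4 to 65.3) and within the size rule. Of the focal adhesion genes Vasp, Ilk and Tln1 (talin) were at 19.5%, 19.5% and 17.4%.

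YAP and TEAD genes were lower in 8 of 9, against 66.1% of all genes, with Yap1 itself at 13.0% (9.87 to 17.0), Amotl2, an inhibitor of YAP, at 24.8% (20.1 to 30.6), and Ajuba, a LIM protein, within the size rule at 60.8% (51.4 to 71.7).

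The list of growth factor induced SRF targets had 1 of 5 members lower and 1 higher, against 66.1% and 2.20% of all genes. Fos, among the 5, passed the filter only through the 5 h DRB column. At 0.296 reads per kb without drug it could not fall by 1 unit. Ier2 had 95.3 reads per kb after 2 h of DRB, against 78.9 without drug, or 121% (94.2 to 155), and Mcl1, an anti-apoptotic gene, 93.8 against 133, or 70.6% (62.1 to 80.2). Nr4a1, a nuclear receptor gene, was at 17.5% (12.3 to 24.4). The higher one was Egr1, named after its values were seen, with 34 net reads, against 14, or 243% (127 to 490). Of the SRF cofactor list 1 of 4 was lower, Elk4, with 0.0800 reads per kb in the 2 h DRB column, against 6.76 without drug. Its relatives Elk3 and Elk1, at 16.5% (8.39 to 29.8) and 40.0% (15.2 to 94.8), lay within the size rule at levels near 1 read per kb. Among muscle-type actin genes and targets 3 of 9 passed the filter, with 39 net reads over the 9 genes without drug, and of the 4 other CCN family genes, relatives of Ctgf and Cyr61, none passed it.

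After 5 h of DRB 59 of the 65 pathway genes were lower and 1, Fos, was higher, beside 85.5% and 1.03% of 8773 genes. Fos had 7 net reads against 1 without drug, or 700% (89.9 to 31548). It passed the filter only through its 2.07 reads per kb in the 5 h column, so its call follows in part from the filter. Of the 65 genes, 28 were listed at 0 after 5 h of DRB, against 47.3% of 8560 genes with signal without drug. After 1 h of triptolide 59 were lower and 0 higher, against 87.9% and 0.787%, and after 2 h 58 and 0, against 87.0% and 0.866%. With equal quantiles 25 were lower and 4 higher after 5 h of DRB, against 2232 and 1110 of 8773 genes. The counts were 31 and 7 after 1 h of triptolide, against 2679 and 1161, and 23 and 7 after 2 h, against 2373 and 1176.

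**Figure D5:**
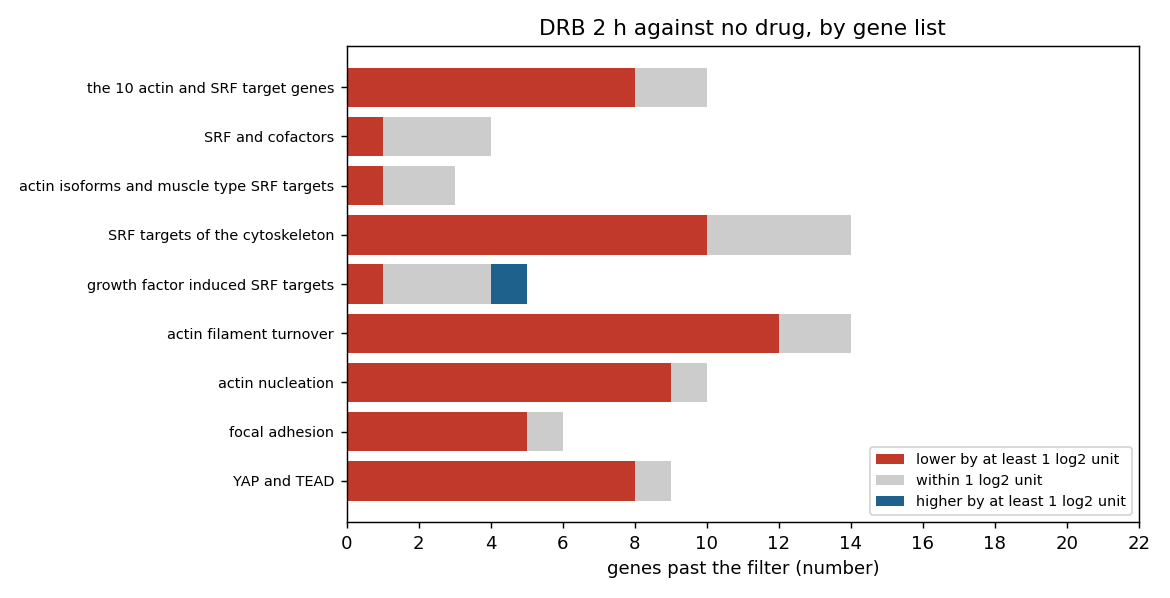
Genes past the filter (x axis, number) that were lower, within or higher by 1 log2 unit after 2 h of DRB against no drug, for the 10 genes described and for 8 pathway lists. A higher gene appears in 1 list, the growth factor induced SRF targets, and the CCN family list is not drawn because no gene passed the filter.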

How the data were processed

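Of 20 samples in 10 groups, the deposited table gives 1 column for each of 5 conditions. The authors deposited a signal, reads per kb of gene length, with negatives set to 0 and Ensembl 72 identifiers, per the file headers. Bowtie and the builds GRCm38 and mm10 stand in the submitters' processing notes. The sources used here do not say how the 2 replicates were combined, how background was subtracted or whether depth was equalised.

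Within each gene the values are whole multiples of 1000 divided by its length in bases, which gave net reads for 17511 of 17512 genes with signal. The length was the GENCODE M21 gene span (end minus start) for 10265 genes, a multiple of the step within 20% of it for 6466, a transcript span for 121, Cfl1 among them, and the step alone for 659. Recovery was tried on simulated data, with the outcome not given here, and the net reads were not checked against raw counts. Ratios carry exact Clopper-Pearson 95% intervals, which treat net reads as counts and leave out replicate spread and the subtraction.

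Genes above 1 in at least 1 condition were compared on log2(value + 1), with a difference of 1 as the size rule in place of a test. With 1 column per condition no test was possible. Alternatives were pseudocounts of 0.1 and 10, no filter, at least 20 net reads, equal medians over genes above 0 in all columns, and equal quantiles. Pathway genes named in each list are the 3 highest without drug, and the nearest genes were sought for Actb, Vcl and Srf. The planned protein comparison was replaced by coding bases. A further pathway list is not reported here. Members and lists were chosen with earlier results of these data known. Python 3.11.15, numpy 2.4.6, pandas 2.3.3, scipy 1.17.1 and matplotlib 3.10.9 were used.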

Additional observations from a re-analysis of the deposited data

How the results depend on the processing

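No paired analysis was possible because the deposited columns carry no replicate, and for the same reason no replicate could be left out. All 10 members passed every filter tried, so the filters could not move their values. Members lower after 2 h of DRB numbered 8, but 5 with equal medians and 5 with equal quantiles, and their median log2 difference was -2.37 as deposited, -0.88 with equal medians and -1.03 with equal quantiles. After 5 h they were 6 with equal quantiles, against 2232 of 8773 genes. With equal quantiles 1 member was higher after 1 h of triptolide, against 1161 of the genes. Between 5 h and 2 h of DRB a pseudocount of 10 left 3 lower and 0 higher, against 249 and 1 of the genes. Equal quantiles gave 2 higher there, against 925. Between triptolide times a pseudocount of 10 left 0 lower, against 5 genes. Between DRB and triptolide at 2 h it left 3 higher, against 312 genes. Median log2 differences of the members against no drug were -2.28 with a pseudocount of 10 and -1.86 with equal quantiles after 5 h of DRB, -8.49 with a pseudocount of 0.1 after 1 h of triptolide, and -8.78 and -2.43 with pseudocounts of 0.1 and 10 after 2 h; DRB against triptolide at 2 h gave 5.48 with 0.1. The median of the members' own percents was 0 in the comparisons of 5 h of DRB and both triptolide times with no drug and of the later with the earlier times, and 389% for DRB against triptolide at 2 h, where 1 gene had signal. Without Srf the members' sum at 2 h of triptolide was 225% of that at 1 h, against 52.9% with it. Members past the size rule as deposited that changed sign were Srf after 2 h of DRB (0.24 with equal medians, 0.38 with equal quantiles) and after 1 h of triptolide (0.14 and 1.70), and Vcl after 2 h of triptolide (0.34 with equal quantiles); Tmsb4x and Vcl after 2 h of DRB, and Vcl with DRB against triptolide, changed sign within the size rule, with the values given beside them above. Equal medians or quantiles assume that most genes are unchanged. The median difference over all genes after 2 h of DRB was -1.27 as deposited, -0.52 under the first of these and -0.12 under the other. With triptolide and at 5 h of DRB the members' values rest on 2 to 13 net reads or are 0.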
